A study of Drosophila melanogaster with 35 samples.

Results

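Rif1 null and Rif1 heterozygous mitotic follicle cells were compared to describe what loss of the second Rif1 copy did to replication timing (RT) along the *Drosophila melanogaster* chromosomes. The measured value was S phase over G1 read depth as a log2 value (log2 S/G1) in 100-kb windows at a 10-kb slide, where a higher value stands for earlier replication. Of the 13391 windows of the 6 major scaffolds, 13356 were compared. Left out were 4 windows without a finite heterozygote value and 31 windows of X with midpoints from 2.7 to 3 Mb. In this X block the profiles reached log2 values above 6 (6.59 in Rif1 null and 6.45 in heterozygotes). Each condition was centred on its own scaffold median, and a difference is always Rif1 null minus heterozygote on this centred log2 scale.

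Rif1 null cells were *Rif1-1/Rif1-2*, with both gene copies lost, and heterozygous cells were *Rif1-2/CyO*, with 1 copy lost and CyO, a multiply inverted balancer, as the other second chromosome. Wild type was *OregonR*, which is given beside both. All were nuclei from dissected ovaries of adult females, sorted by DNA content from S phase between the 2C and 4C peaks, a gate that can also hold cells entering their first endocycle. Ovaries of many females were pooled. *Rif1* itself lies on 2R, so Rif1 null and heterozygous cells differed in allele, in the balancer and in the second-chromosome homologue as well as in copy number, and these differences cannot be told apart. Each condition had 2 S phase samples, of which the table holds only the mean. No SD, interval or test over replicates could be had, the read depth is unknown, and every value here is a description of the averaged profiles without a replicate check.

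Rif1 is a conserved chromatin protein that recruits protein phosphatase 1 (PP1) to origins of replication, where PP1 opposes the DDK kinase (Cdc7 and its activator, called Chiffon in flies) that starts replication. In flies Rif1 is known for keeping pericentric heterochromatin, the satellite- and transposon-rich DNA around the centromeres, late in S phase. Endocycling follicle cells also underreplicate this DNA, which requires Rif1, and S/G1 is a relative copy number. The study weighed loss of underreplication and concluded that its differences were in timing. Timing and underreplication were not told apart here. Follicle cells are the somatic epithelium that surrounds the germline in the ovary. They divide mitotically, switch to endocycles under Notch signaling, and then amplify the chorion (eggshell) genes.

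As examples, a stretch of 120 bases (RefSeq, dm6, plus strand) is given from 3 regions. Each is from the middle of a region where Rif1 null cells stood far above heterozygotes. The first lies at chr3R:2794941-2795060 in an intron of *Pzl*, inside the longest pericentric stretch described below. The second lies at chr2L:17109941-17110060, between genes, 13247 bases from *CG31784*, and the third at chr3L:13669941-13670060 in an intron of *bru3*, both at the centre of a late valley. Lower case marks bases that RefSeq masks as repeats and capitals mark unmasked bases.
3R pericentric: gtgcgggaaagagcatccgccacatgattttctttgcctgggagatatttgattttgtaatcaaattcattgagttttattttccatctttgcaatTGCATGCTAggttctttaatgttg
2L valley: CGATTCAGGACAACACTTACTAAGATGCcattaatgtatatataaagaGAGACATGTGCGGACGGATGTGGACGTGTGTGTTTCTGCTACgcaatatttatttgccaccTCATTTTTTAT
3L valley: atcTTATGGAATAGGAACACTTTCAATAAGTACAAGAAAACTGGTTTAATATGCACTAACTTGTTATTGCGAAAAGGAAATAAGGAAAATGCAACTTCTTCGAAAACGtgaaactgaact
Of the 120 bases, 111 were masked in the pericentric stretch, 39 in the 2L valley and 15 in the 3L valley. These short stretches do not stand for their regions. The median masked share of pericentric 3R windows was 40.1%. Transposons cover 3.20% of the windows of the 3R region, 4.62% of the 2L valley and 3.90% of the 3L valley. The GC content of the stretches was 36.7%, 38.3% and 31.7% in the same order.

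In all, 2312 of the 13356 windows (17.3%) were higher in Rif1 null than in heterozygous cells by over 0.1. Another 1865 (14.0%) were lower by over 0.1. The study used this limit on quantile normalized values together with an adjusted p-value, so these shares do not meet its full criterion. Quantile normalization of both conditions in place of centring turned the split of higher and lower windows round, to 12.5% higher and 15.5% lower. With a limit of 0.2, 7.59% were higher and 4.17% were lower. Pericentric heterochromatin held 13.6% of all windows, 64.4% of those higher by over 0.2 and 72.7% of those lower by over 0.2. On the chromosome arms 13.5% of 11409 windows were higher and 9.53% were lower by over 0.1, and in pericentric heterochromatin 41.2% of 1814 windows were higher and 40.6% were lower.

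**Figure D1:**
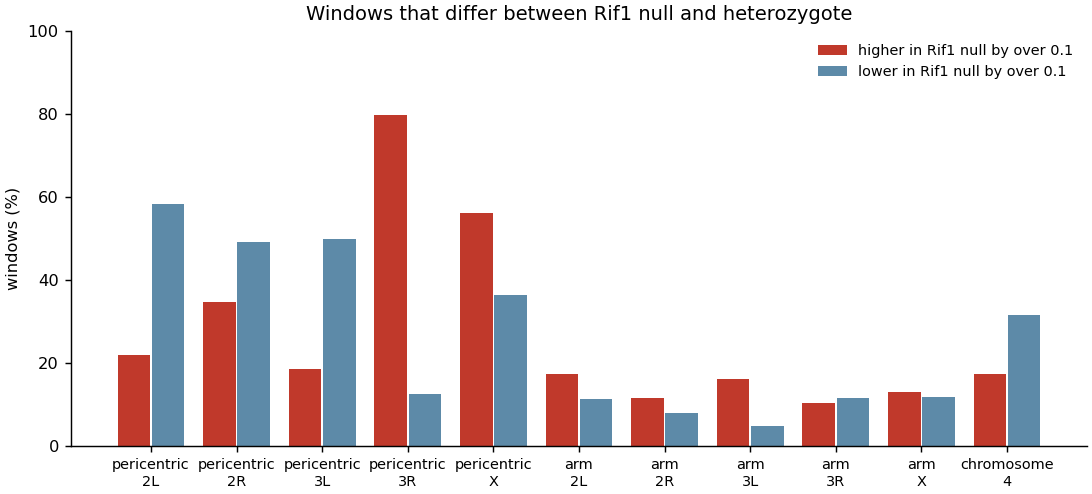
Share of windows (percent) higher and lower in Rif1 null than in heterozygous cells by over 0.1, for pericentric and arm windows of each scaffold and for chromosome 4. Pericentric 3R and X had the most higher windows (79.8% and 56.3%), and pericentric 2L the most lower ones (58.3%).

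The profile of Rif1 null cells was flatter than that of heterozygotes. Across pericentric windows its SD was 0.20 in Rif1 null, 0.48 in heterozygous and 0.53 in wild-type cells, and across arm windows it was 0.08, 0.13 and 0.13. The slope of the profile on that of wild type was 0.08 in Rif1 null against 0.80 in heterozygous cells in pericentric windows, and 0.36 against 0.75 on the arms. In pericentric heterochromatin Spearman's rho with the wild-type profile was 0.27 in Rif1 null and 0.90 in heterozygous cells, over 1814 windows that overlap their neighbours and may share a G1 control. By scaffold, the pericentric rho of Rif1 null ran from −0.28 on X to 0.58 on 2L, and its slope from −0.10 on X to 0.32 on 2L. The rho of heterozygotes ran from 0.79 on 2L to 0.92 on 2R. Deposited values beyond 1 in size occurred in 12 windows of Rif1 null, 114 of heterozygous and 194 of wild-type cells.

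Pericentric windows did not change in one direction. Sorted into 5 groups of equal size (quintiles) by the wild-type level, which is no part of the difference, the latest quintile had medians of −0.06 in Rif1 null, −0.79 in heterozygous and −0.99 in wild-type cells, and 97.8% of its 363 windows were higher in Rif1 null by over 0.1. The next quintile had medians of 0.03, −0.30 and −0.73 in the same order. The middle quintile had 0.02 in Rif1 null and 0.03 in heterozygotes, both above the −0.27 of wild type. In the earliest quintile Rif1 null cells stood at 0.12, heterozygotes at 0.36 and wild type at 0.18, and 92.3% of windows were lower in Rif1 null. Quantile normalization left median differences of 0.34 in the latest and −0.13 in the earliest quintile, against 0.74 and −0.25 with centring.

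**Figure D2:**
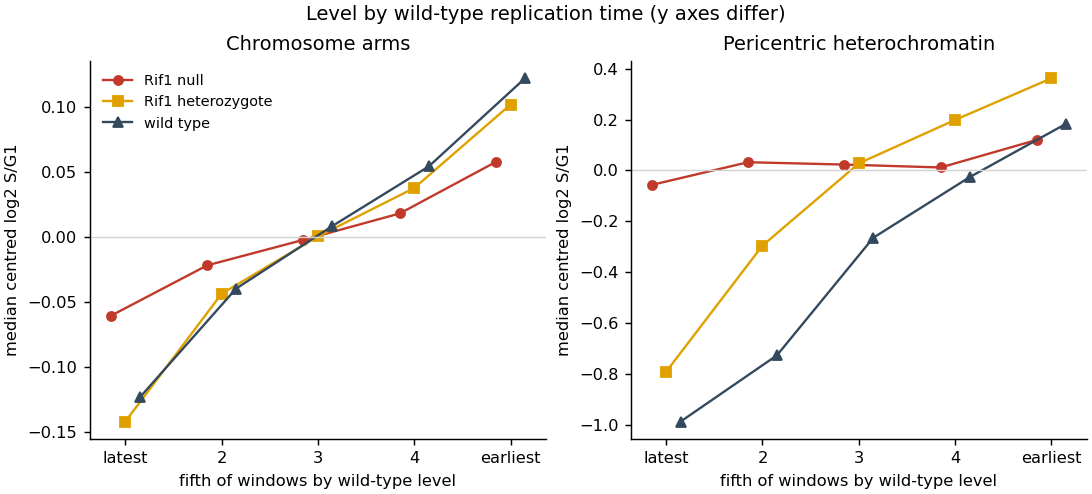
Median centred log2 S/G1 (y axis, scales differ) in quintiles of windows from latest to earliest by wild-type level, for arm and pericentric windows, in Rif1 null, heterozygous and wild-type cells. In pericentric heterochromatin Rif1 null medians ran from −0.06 to 0.12, while heterozygous ones ran from −0.79 to 0.36.

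The sets past the limit were also set beside wild type. The sign that chose each set fixes the order of Rif1 null and heterozygote in it, so only the place of wild type is free. Among the 748 pericentric windows higher in Rif1 null than in heterozygotes, the medians were 0.02 in Rif1 null, −0.53 in heterozygotes and −0.83 in wild type, and the heterozygote lay between the other two in 632 (84.5%). Among the 736 lower ones the medians were 0.03, 0.27 and 0.03, and the heterozygote lay between the others in 46 (6.25%). In 355 of those 736 windows Rif1 null lay between heterozygote and wild type and in 335 wild type lay in the middle, so in both cases the heterozygote was the highest. Of the 736, 82.2% were higher in heterozygotes than in wild type by over 0.1. This was no trait of the lower windows, since it held for 77.1% of the 748 higher and 89.7% of the 330 other pericentric windows. Of the 736 Rif1 null values, 52.0% were within 0.1 of wild type, against 1.07% in the higher and 11.8% in the other windows.

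On the centred scale few late pericentric windows stayed below a fixed late level in Rif1 null cells. The Rif1 null profile was flatter on this scale, and the counts below were not repeated after quantile normalization. Of 874 pericentric windows with a wild-type level below −0.3, 43 (4.92%) were below this level in Rif1 null and 535 (61.2%) in heterozygotes. The median of these 874 windows was 0.0019 in Rif1 null, −0.44 in heterozygotes and −0.80 in wild type. On 3R none of 332 such windows was below −0.3 in Rif1 null, and 288 (86.7%) were in heterozygotes. On 3L, 2 of 213 were below it in Rif1 null and 29 (13.6%) in heterozygotes, so that there most late windows were already above this level with 1 copy lost. On 2R it was 25 of 223 (11.2%) in Rif1 null and 132 (59.2%) in heterozygotes, on X 9 of 72 (12.5%) and 68 (94.4%), and on 2L 7 of 34 (20.6%) and 18 (52.9%).

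The scaffolds differed accordingly. Pericentric 3R had medians of −0.02 in Rif1 null, −0.56 in heterozygous and −0.85 in wild-type cells, a median difference between Rif1 null and heterozygote of 0.53 with quartiles of 0.23 and 0.83. Pericentric X had 0.12, −0.40 and −0.27, a median difference of 0.68. Its quartiles were −0.17 and 1.02, since 36.3% of its 160 windows were lower, and the median was 0.041 without windows beyond 1 in size. Pericentric 2L had 0.06, 0.16 and −0.04, pericentric 2R 0.04, 0.09 and −0.11, and pericentric 3L 0.03, 0.14 and −0.19. On these 3 scaffolds the median differences were −0.12, −0.09 and −0.10. After quantile normalization the median differences were 0.25 on 3R, 0.40 on X and 0.036 on 2R.

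**Figure D3:**
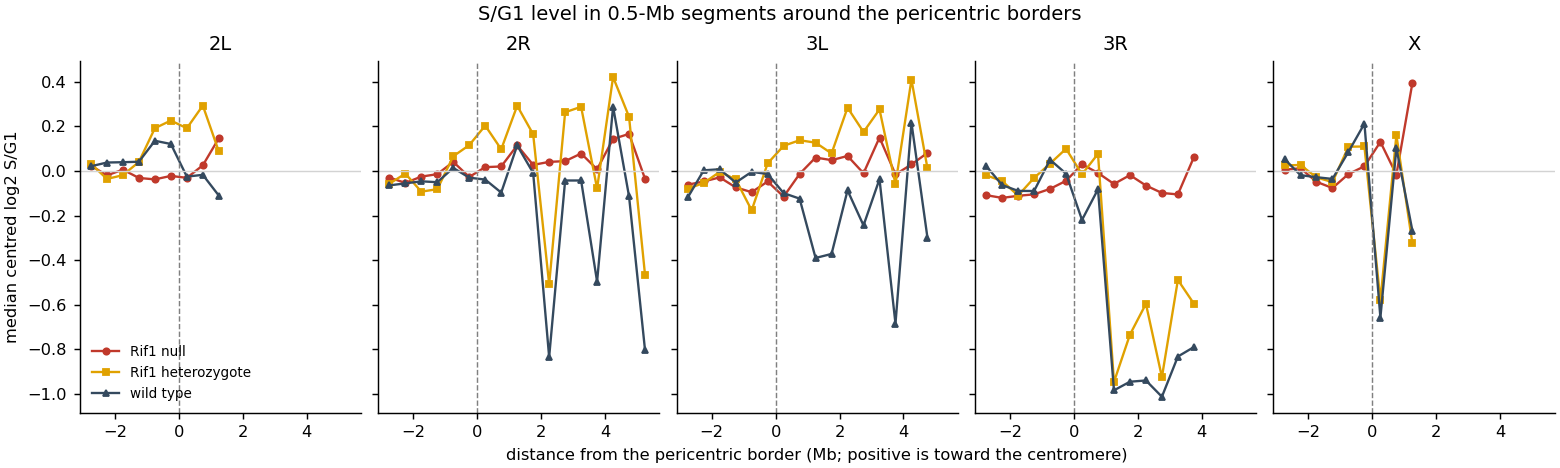
Median centred log2 S/G1 (y axis) in segments of 0.5 Mb by distance from the pericentric border in Mb (x axis, positive toward the centromere), for Rif1 null, heterozygous and wild-type cells on each scaffold. Inside the border, segment medians of Rif1 null ran from −0.12 to 0.39, those of heterozygotes from −0.95 to 0.42 and those of wild type from −1.01 to 0.29.

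Blocks of late replication alternated with earlier blocks inside pericentric heterochromatin. Of 35 segments of 0.5 Mb, the median difference was above 0.1 in 10, below −0.1 in 17 and within these limits in 8, and 6 of the 8 segments on 3R were above 0.1. On 3R, higher runs from 2120001 to 3470000 and from 3870001 to 4180000 lay on both sides of a lower run from 3400001 to 3910000. The segment from 0.5 to 1.0 Mb inside the border, where 44.0% of windows were higher and 52.0% lower, had medians of −0.01 in Rif1 null, 0.08 in heterozygotes and −0.08 in wild type, and the next one had −0.06, −0.95 and −0.98. On 2R the segment from 2.0 to 2.5 Mb inside the border stood alone between earlier neighbours, at 0.04 in Rif1 null, −0.51 in heterozygotes and −0.84 in wild type. On 3L the segment from 4.0 to 4.5 Mb was early in heterozygotes (0.41) and wild type (0.22), against 0.03 in Rif1 null.

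The strongest pericentric runs of consecutive windows past 0.1 were named by summed difference. On 3R it reached from 2120001 to 3470000 (126 windows), over *Pzl* (Piezo-like, of a mechanosensitive channel family), *Myo81F* (an unconventional myosin), *spok* (an ecdysone synthesis enzyme) and the end of *Parp1*, with means of −0.01 in Rif1 null, −0.67 in heterozygous and −0.90 in wild-type cells. On X the last 46 windows, from 23090001 to 23542271, averaged 0.41 in Rif1 null, −0.79 in heterozygotes and −1.28 in wild type, the widest gap of these runs. On 2R the run from 220001 to 940000 (63 windows) averaged −0.04, −0.52 and −0.85, and on 2L the last 27 windows, with *Tim23* (a mitochondrial import channel) and *Gpb5* (a hormone subunit), averaged −0.14, −0.63 and −1.03. Runs of the other direction were 310 kb to 730 kb long. That on 3L from 27030001 to 27560000 (44 windows), with *vtd* (a cohesin subunit), *RpL15* and *Dbp80*, averaged −0.01 in Rif1 null, 0.40 in heterozygotes and 0.22 in wild type.

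Genes known from heterochromatin lay mostly in windows of the second kind. Of 13 listed genes, 12 protein-coding ones inside the pericentric borders and the non-coding *flam* beside them, 11 had a window lower in Rif1 null than in heterozygotes by over 0.1 and 2 a higher one. Lower windows made up 40.6% of all pericentric windows and 79.3% of the pericentric quintile with most gene starts, so the count of the genes was near that of gene-rich pericentric windows. *lt* (light, a vesicle trafficking gene long studied for its need of heterochromatin) was at 0.03 in Rif1 null, 0.52 in heterozygotes and 0.04 in wild type. *RpL15*, a ribosomal protein gene, was at 0.10, 0.61 and 0.39, and *rl* (rolled, the ERK kinase) at 0.18, 0.59 and 0.52. *RpL5*, another ribosomal protein gene, was at 0.25, 0.52 and 0.12, and *Nipped-B*, which encodes a cohesin loader, at 0.02, 0.30 and −0.03. In each of these 5 windows the heterozygote was the highest of the 3 genotypes. *RpL38* was lower by 0.16 with centring but stood at 0.033 after quantile normalization.

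**Figure D4:**
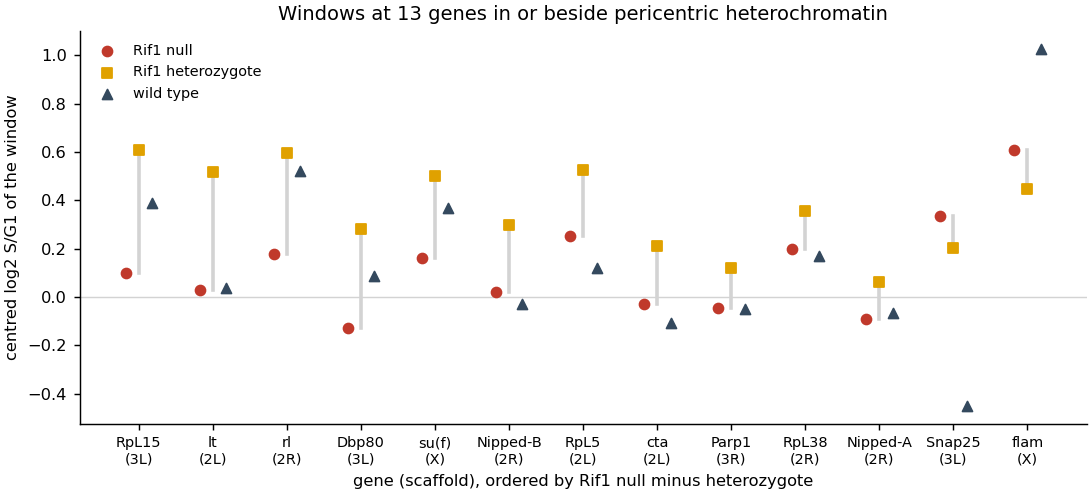
Centred log2 S/G1 (y axis) of the window at each of 13 genes in or beside pericentric heterochromatin, in Rif1 null, heterozygous and wild-type cells; grey bars join Rif1 null and heterozygote. In 11 genes the Rif1 null point lies below the heterozygous point, and at *Snap25* and *flam* it lies above.

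The 2 exceptions differed from each other. *Snap25*, of the synaptic vesicle fusion machinery, was at 0.34 in Rif1 null, 0.20 in heterozygotes and −0.45 in wild type. The window at *flam*, the piRNA cluster that silences transposons in follicle cells, was at 0.61, 0.45 and 1.03. The direction was not the same along the whole locus. A lower run from 21490001 to 21730000 (15 windows), which overlaps part of *flam*, averaged 0.04, 0.24 and 0.33. *flam* lies on X from 21631891 to 21790731, outside the pericentric border used here, and transposons cover 51.7% of the early block around it. The part of this repeat content in its values was not tested.

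On the chromosome arms the differences were small and followed the wild-type level. In the latest quintile of arm windows the medians were −0.06 in Rif1 null, −0.14 in heterozygotes and −0.12 in wild type, and in the earliest quintile they were 0.06, 0.10 and 0.12. Of the latest quintile, 40.1% were higher in Rif1 null by over 0.1 and 3.51% lower, and of the earliest quintile 2.28% were higher and 20.3% lower. On each of the 5 large scaffolds the median difference was above 0 in the latest quintile (0.04 on 3R to 0.12 on 2L) and below 0 in the earliest one (−0.06 on 2L to −0.02 on 2R). These quintiles depend on the scale: after quantile normalization, which gives both profiles the same spread, the median differences were 0.0044 in the latest and 0.0090 in the earliest quintile, against 0.08 and −0.04 with centring.

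The valleys of the wild-type profile carried the clearest differences on the arms. Valleys were stretches of at least 5 windows where a running mean of 11 wild-type windows was below −0.2. In 21 of 23 valleys the mean was higher in Rif1 null than in heterozygotes, in 18 by over 0.1, and in none was it lower by over 0.1. The medians over the valleys were −0.06 in Rif1 null, −0.25 in heterozygotes and −0.31 in wild type, and the mean stayed below −0.2 in 2 valleys in Rif1 null and in 16 in heterozygotes. The heterozygote was nearer to wild type than Rif1 null was in 21 of the 23. The median difference of the valleys was 0.22 with centring and 0.12 after quantile normalization.

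**Figure D5:**
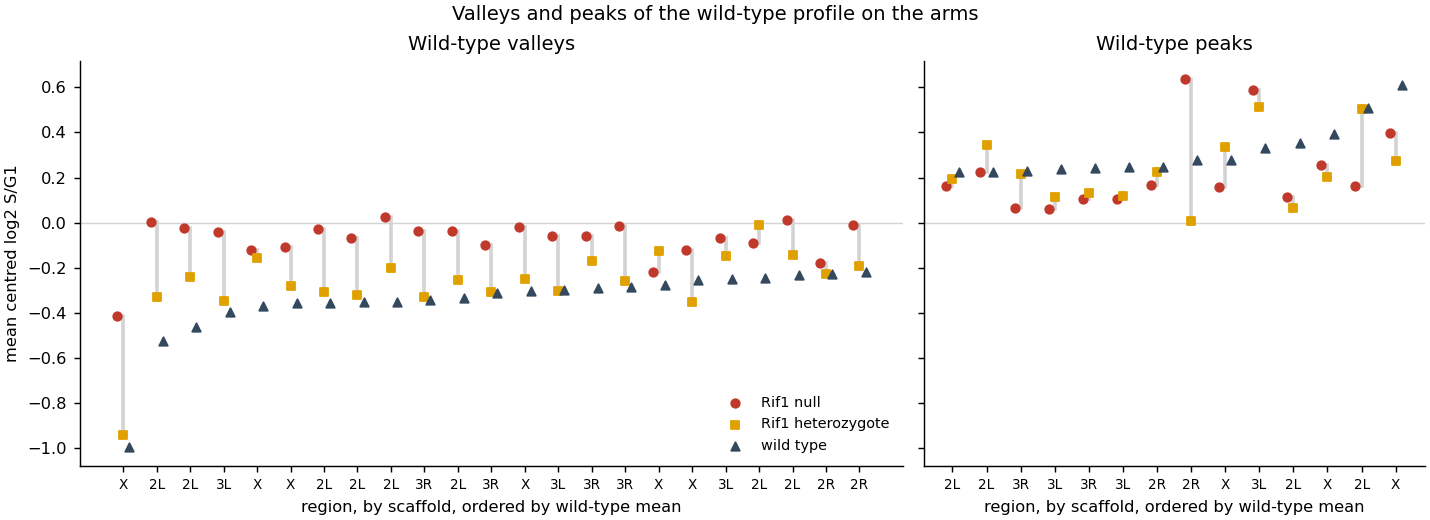
Mean centred log2 S/G1 (y axis) in 23 valleys and 14 peaks of the wild-type profile on the arms, ordered by wild-type mean (x axis, scaffold given), in Rif1 null, heterozygous and wild-type cells; grey bars join Rif1 null and heterozygote. In 21 valleys the Rif1 null point lies above the heterozygous point, and its median over the valleys is −0.06.

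Genes in the valleys were looked up after the valleys had been found. The deepest valley away from the pericentric borders, on 2L from 16910001 to 17370000 (37 windows), holds the *beat-III* genes, which encode axon guidance proteins, and the gustatory receptor genes *Gr36a*, *Gr36b* and *Gr36c*. It averaged 0.0045 in Rif1 null, −0.33 in heterozygotes and −0.52 in wild type. The 2L valley from 14700001 to 14990000, with the sperm protamine genes *ProtA* and *ProtB*, averaged −0.02, −0.24 and −0.46. That on 3L from 13530001 to 13880000, over *bru3* (an RNA-binding protein gene), averaged −0.04, −0.35 and −0.40, and that on 2L from 17550001 to 17990000, with *CadN2* (a neural cadherin), −0.03, −0.31 and −0.36. On 3R from 28000001 to 28280000 the means were −0.04, −0.33 and −0.34.

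Valleys were not all alike. The deepest of all, on X from 21800001 to 21990000 beside the pericentric border, averaged −0.42 in Rif1 null, −0.94 in heterozygotes and −0.997 in wild type, and was the lowest of the 23 in all 3 genotypes. The X valley at *shakB*, a gap junction gene, averaged −0.12, −0.16 and −0.37, so that the heterozygote was near Rif1 null there. In 2 valleys Rif1 null was the lower one. On X from 50001 to 220000, next to the telomere, the means were −0.22 in Rif1 null and −0.12 in heterozygotes, and on 2L from 10230001 to 10410000 they were −0.09 and −0.01.

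Peaks of the wild-type profile, found in the same way above 0.2, differed in both directions. Rif1 null was below heterozygotes in 9 of 14 peaks and above in 5, and the median difference was −0.03, or 0.050 after quantile normalization. The medians were 0.16 in Rif1 null, 0.21 in heterozygotes and 0.26 in wild type. The differences ran from −0.34 at the histone genes on 2L to 0.63 on 2R from 6310001 to 6480000, where the means were 0.64 in Rif1 null, 0.0067 in heterozygotes and 0.28 in wild type. Of the peaks, 4 were lower in Rif1 null by over 0.1 and 2 were higher. Lower ones included the peak on 3R from 13930001 to 14110000, with *foxo* (the transcription factor downstream of insulin signaling), at 0.07, 0.21 and 0.23, and that on X from 13910001 to 14070000, at 0.16, 0.34 and 0.28. The peak at *dac* (dachshund, an eye and leg fate gene) on 2L averaged 0.22 in Rif1 null, 0.34 in heterozygotes and 0.23 in wild type. The higher peaks past 0.1 were that on 2R and the one around *flam* on X, which averaged 0.40, 0.27 and 0.61.

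Loci that follicle cells amplify after the switch to endocycles were above their arms in every genotype compared. The cells here were sorted as mitotic, and no other tissue was set beside them at these loci. These values are therefore no check of the tissue label, and whether they stand for amplification or for early replication was not tested. The 3L window that holds 4 chorion genes, *Cp15* to *Cp19*, was at 0.76 in Rif1 null, 0.71 in heterozygotes and 0.43 in wild type, and that of *Cp36* and *Cp38* on X at 0.33, 0.32 and 0.15. Both differences were under 0.1, while over all arm windows the Rif1 null profile was flatter. The yolk protein genes *Yp1* and *Yp2*, also made in follicle cells, shared a window at 0.04 in Rif1 null and 0.07 in heterozygotes, and *Yp3* was at −0.09 and 0.08.

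The histone gene repeats on 2L went the other way. Windows over the cluster, from 21310001 to 21690000 (29 windows, with 119 annotated histone genes), averaged 0.24 in Rif1 null, 0.58 in heterozygotes and 0.62 in wild type. Differences in single windows ran from −0.49 to 0.58. The copies of this repeat are nearly identical, so that reads cannot be assigned to single copies with certainty, and its values are less certain than those of unique sequence. A lower run from 20940001 to 21510000 (48 windows), which starts distal to the cluster and reaches into it, had means of 0.02, 0.27 and 0.20.

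Single runs on the arms also stood out next to the borders. On 2R the 16 windows from 6300001 to 6550000, which reach into *jing* (a zinc-finger transcription factor of border cells and trachea), averaged 0.39 in Rif1 null, −0.07 in heterozygotes and 0.15 in wild type, and transposons cover 56.7% of them. On X the run from 21640001 to 22040000 (31 windows, no protein-coding gene) averaged 0.11, −0.36 and −0.20. On 3R the 720 kb of arm next to the border (63 windows) averaged −0.08 in Rif1 null, 0.08 in heterozygotes and −0.0041 in wild type. In all there were 104 runs of at least 5 windows that were higher on the arms, with a median length of 190 kb, and 82 lower ones, with a median of 180 kb. The wild-type mean was below 0 in 89 (85.6%) of the higher and 15 (18.3%) of the lower runs, and in 46.2% of all arm windows. As with the arm quintiles, this split may come with the flatter Rif1 null profile on the centred scale. It was not repeated after quantile normalization.

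The second chromosome, which was balanced in heterozygotes, had the middle of its arm differences spread like that of the other chromosomes. Its excess of windows far from 0 over chromosome 3 lay mainly on 2L. The interquartile range of the arm difference was 0.117 on 2L and 0.106 on 2R, against 0.112 on 3L, 0.111 on 3R and 0.107 on X. Of arm windows on chromosome 2, 14.6% were higher and 9.60% lower in Rif1 null by over 0.1, and on chromosome 3 these shares were 12.9% and 8.53%. Past 0.2 they were 4.30% and 2.14% on chromosome 2, against 1.77% and 0.53% on chromosome 3, and the SD of the difference was 0.109 and 0.085. Arm 2L had the most windows past 0.2, with 6.92% higher and 2.96% lower, and an SD of 0.122. Below 21 Mb, without the histone genes and the stretch beside the border, it had 7.21% higher and 0.48% lower, with an SD of 0.105. Arm 2R had 1.38% higher and 1.22% lower, with an SD of 0.094. Arm X, which CyO does not balance, had 3.97% higher and 0.55% lower, with an SD of 0.107. The balancer and the Rif1 copy number cannot be told apart here. Changes over several Mb were shallow. In bins of 2 Mb the median difference on the arms ran from −0.10 on proximal 3R to 0.11 at the distal end of X.

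Developmental and replication genes were within 0.1 about as often as arm windows in general, of which 77.0% were. In the bithorax and Antennapedia Hox complexes, which pattern the body axis, 5 of 6 genes were within this limit. *Scr* (Sex combs reduced), at −0.19 in Rif1 null and −0.06 in heterozygotes, was lower, and *Ubx* was at −0.02 and −0.03. Of 10 genes of follicle cell cycle and fate, 8 were within the limit. *CycE*, the cyclin that drives S phase entry, was at 0.09 in Rif1 null, 0.25 in heterozygotes and 0.17 in wild type, and *br* (broad, an ecdysone response factor that patterns the eggshell) at −0.13, −0.33 and −0.23. Of 10 genes of the timing machinery none was higher and 3 were lower. *chif*, which encodes Chiffon, was at 0.11 and 0.23, the PP1 gene *Pp1-87B* at 0.09 and 0.20, and *Su(var)3-9*, a histone H3K9 methyltransferase gene, at 0.11 and 0.23. The window of *Rif1* itself was at −0.04 in Rif1 null and −0.05 in heterozygotes.

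Chromosome 4, the small and largely heterochromatic dot chromosome, had an offset that centring on the scaffold removes. As deposited, its median was −0.07 in Rif1 null, 0.27 in heterozygotes and −0.03 in wild type, and all 133 windows compared were lower in Rif1 null than in heterozygotes. The 5 other scaffolds had differences between deposited medians from −0.05 to 0.05, against −0.33 for chromosome 4. After centring, the distal *ey* (eyeless) stretch from 660001 to 960000 was higher in Rif1 null, at −0.01 against −0.16 in heterozygotes, but it was lower by 0.18 as deposited. The stretch from 1 to 320000, with *ci* and *pan*, transcription factors of Hedgehog and Wingless signaling, was lower on either scale, with centred means of 0.13 and 0.37.

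Ends of the scaffolds showed no shared change. In the last 0.5 Mb toward the telomeres the median difference ran from −0.08 on 2R to 0.02 on 3R. The 6 outermost windows of X averaged 0.49 in Rif1 null, 0.03 in heterozygotes and −0.49 in wild type, and those of 2L −0.12, −0.10 and −0.17. At the ends of 2R and 3R the difference had the opposite sign to that of X. The 15 outermost windows of 2R averaged −0.18 in Rif1 null, −0.03 in heterozygotes and −0.15 in wild type, and those of 3R 0.01, 0.19 and 0.0063.

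Windows that changed in opposite directions differed in gene content. Pericentric windows higher in Rif1 null had a mean of 0.46 gene starts, lower ones 1.99 and the others 0.81. The pericentric quintile with most gene starts had medians of 0.03 in Rif1 null, 0.22 in heterozygotes and 0.0023 in wild type, and 79.3% of its windows were lower. In the pericentric quintile richest in transposons 12.1% were higher and 65.3% lower, and in that with the highest GC content 62.8% were higher and 17.9% lower. On the arms higher windows had a mean of 7.22 gene starts, lower ones 13.1 and the others 12.6, with a median GC content of 43.3% in higher and 40.9% in lower windows.

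The same windows were followed in 3 comparisons that share no S phase sample with this one. Pericentric windows higher in Rif1 null than in heterozygotes had a median of 0.98 for Rif1 null minus wild type in endocycling (4C to 8C) follicle cells and 0.72 for the PP1-binding mutant (*Rif1-PP1/Rif1-1*) minus wild type in mitotic follicle cells. Pericentric windows lower than in heterozygotes had −0.16 and −0.04 in these comparisons, and all pericentric windows had 0.20 and 0.25. The part of underreplication in these values was not tested. In wing discs, where Rif1 null was set against *yw*, the medians were 0.03 in the higher, 0.06 in the lower and 0.05 in all pericentric windows. On the arms the higher and lower windows had medians of 0.09 and −0.11 in endocycling cells, 0.04 and −0.02 for the PP1-binding mutant, and 0.03 and −0.0045 in wing discs.

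In the 23 valleys the endocycling Rif1 null mean was above the endocycling wild-type mean in 18, with a median of −0.14 in Rif1 null and −0.23 in wild type. The valleys were chosen on the mitotic wild-type profile only. In wing discs the difference between Rif1 null and wild type over these valleys had a median of 0.04 and ran from −0.06 to 0.19.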

How the data were processed

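Per the study's methods, the authors aligned reads to dm6 with Bowtie2 2.3.2, kept mapping qualities over 10 with SAMtools 1.9, counted reads in windows, scaled them to read depth and divided S phase by G1 of wing discs. The deposited values are log2 of this S/G1 ratio, 1 mean of 2 samples per condition. If both conditions had the same G1 divisor, it cancels in their difference. Whether exact zeros replaced missing values is not given in the sources used here. The members, gene lists and pericentric borders (2L 22, 2R 5.7, 3L 23, 3R 4.2, X 22 Mb) were chosen with earlier results of these data known. Named genes were the lists in the text, by the window nearest the gene's middle, plus the strongest run per scaffold, compartment and direction. Valleys, peaks and their genes were picked beside that rule. The software was numpy 2.4.6, matplotlib 3.10.9, scipy 1.17.1 and pandas 2.3.3 under Python 3.11.15. Genes came from Ensembl release 115, transposon and GC content from RefSeq, whose scaffold lengths equal the table's. The calling code was checked on simulated large shifts with little added noise. This check does not measure how reliable the calls in these data are. Alternatives were other centrings, quantile normalization, thresholds, borders and window sets. RNA samples were not used here. The limma test of the study needs replicate values and was not run.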

Additional observations from a re-analysis of the deposited data

How the results depend on the processing

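No paired analysis was possible because the table holds only the mean of the samples of each condition, and for the same reason no sample could be left out. Of 178 recomputed values of 22 main results under 14 settings, 152 were unchanged, 26 moved and none of those past 0.1 changed sign. Unchanged is a loose label here. It was given to a median that moved by under 0.05 or kept its sign and a similar size, and to a share, count or SD of similar size. The shares of higher and lower windows kept it under quantile normalization, although their order turned round. Chromosome 4 had a median difference of −0.0071 when centred on scaffolds, −0.332 centred on all windows, −0.333 on arm windows, −0.341 as deposited and −0.331 quantile normalized. Its stretch at *ey* changed sign under the same 4 settings (−0.17, −0.17, −0.18 and −0.22), as did *ey* (−0.21, −0.21, −0.22 and −0.24) and *Sox102F* (−0.19, −0.19, −0.19 and −0.21). *RpL38* changed sign when quantile normalized (0.033). Pericentric 2R (−0.09) was at −0.036 centred on all windows, −0.038 on arm windows, 0.036 quantile normalized and −0.034 with the GC trend removed. Pericentric 3L was at −0.15 as deposited. Quantile normalization gave −0.071 for pericentric 2L, 0.25 for 3R and 0.40 for X, 0.0044 and 0.0090 for the latest and earliest arm quintiles, 0.34 and −0.13 for the pericentric ones, and 0.12 and 0.050 for valleys and peaks. Without windows beyond 1, pericentric X was at 0.041. A threshold of 0.2 gave 7.59% higher and 4.17% lower windows, in 41 and 31 runs in place of 126 and 114, and runs of at least 10 windows numbered 74 and 61. With the X block kept, the SD of Rif1 null arms was 0.15. Leaving out windows with an exact 0, chosen after seeing the data, moved none of the 11 values it was run on. Of 304 values of named loci, 219 were unchanged, 72 moved and 13 changed sign.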

Other observations

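A single window carried the highest difference of all. On 2L from 22790001 to 22890000 the deposited value was exactly 0 in Rif1 null, −2.88 in heterozygotes and −3.52 in wild type, a centred difference of 2.91. The Rif1 null column holds 5 exact zeros, and the other 4 lie where the heterozygote has no finite value.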
